A study of Mus musculus with 48 samples.

Results

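The genes described here are the mouse potassium channel genes whose official symbol is Kcn followed by 1 family letter from a to v and a number, among protein-coding genes. The rule selects 80 of the 38293 genes in the count table and uses no measured value. It takes in pore-forming and regulatory subunits, and it leaves out the gene of the large-conductance calcium-activated channel (Kcnma1) and the accessory families named Kcnab, Kcnip and Kcnmb, which are given as partners.

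RNA was measured by sequencing in 48 libraries from C57/Bl6 mice. All mice were males of 9 weeks that had been fasted for 6 h and then were injected intraperitoneally with 10 µL per g body weight. The treatments were AC3174 (labelled 1 µg/kg), AC170222 (labelled 2.5 µg/kg), a combination of drugs, and saline, with 3 libraries in each group of region, RNA kind and treatment. The regions were the dorsal vagal complex of the hindbrain (DVC), which receives signals from the gut, and the mediobasal hypothalamus (MBH). IP libraries hold RNA from ribosomes pulled down by an antibody to the phosphorylated form of ribosomal protein S6, a mark used to label active cells, and input libraries hold RNA from a small volume of the lysate taken before the pulldown. The treatment field of the labels writes AC710222 where sample titles write AC170222, and the protocol names further doses, so the dose behind the AC170222 libraries is not certain. The sources used here do not give the doses in the combination, the time after injection or how many mice make up a sample. Nothing in the labels says that the 3 libraries of a group come from separate animals, so p-values measure only the spread between these samples.

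Potassium channels let potassium ions leave or enter a cell, and most set the resting potential or end action potentials. Voltage-gated (Kv) subunits open on depolarisation, modifier subunits do not form channels alone but change those they join, inward rectifiers and leak channels hold the resting potential, and calcium- or sodium-activated channels respond to ions that enter during firing. In the brain, neurons differ in which of these genes they use, while astrocytes, choroid plexus epithelium, microglia and vessel cells have channels of their own.

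The members share a short signature of the selectivity filter, the narrowest stretch of the pore, where the backbone of a threonine or serine, a further residue, glycine, an aromatic or leucine residue and glycine binds the ion. A search of the reading frame of each gene's coding transcript in GENCODE M21 found the signature 1 time in 62 members and 2 times in 14, which were the 14 leak channel genes whose subunits have 2 pore regions. It was absent from the 4 Kcne genes, which encode regulatory subunits with no pore. The stretches below belong to the members that the regional and IP results turn on, and capitals mark the 15 bases of the signature.

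Kcnc1: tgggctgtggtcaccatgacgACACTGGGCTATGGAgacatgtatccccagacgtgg

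Kcnc4: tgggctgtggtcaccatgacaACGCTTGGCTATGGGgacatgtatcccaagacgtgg

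Kcnc2: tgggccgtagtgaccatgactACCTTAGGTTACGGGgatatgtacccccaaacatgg

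Kcna1: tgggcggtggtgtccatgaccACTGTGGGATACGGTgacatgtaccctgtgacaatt

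Kcng4: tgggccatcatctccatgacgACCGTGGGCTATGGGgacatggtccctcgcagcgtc

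Kcnj14: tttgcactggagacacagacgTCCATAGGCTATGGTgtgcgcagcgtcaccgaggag

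In GRCm38 these coding stretches lie at chr7:46427952-46428008 (plus strand) for Kcnc1, chr3:107447778-107447834 (minus) for Kcnc4 and chr10:112456208-112456264 (plus) for Kcnc2. Those of Kcna1, Kcng4 and Kcnj14 lie on the minus strand at chr6:126642207-126642263, chr8:119625889-119625945 and chr7:45819612-45819668. Kcnc4 and Kcnc1 differed at 5 of the 57 bases, Kcnc2 and Kcnc1 at 14, Kcng4 and Kcnc1 at 19, and Kcnj14 and Kcnc1 at 31. Over whole transcripts such likeness was short: the median member shared 0% of its 50-base words with any other gene, and 6 members shared over 10%. Among these were Kcnj13 (42.1% of words shared, mostly with the overlapping gene Gigyf2), Kcna6 (38.8%, with the antisense gene Gm26673), Kcnj14 (30.8%, with the processed pseudogene Gm5522) and Kcnj3 (29.3%, with Gm26794). The libraries keep no strand, so reads from the stretches where Kcnj13, Kcna6 and Kcnj3 overlap those genes cannot be told apart. Kcnj14 overlaps no annotated gene, but reads from the words it shares with Gm5522 can match both. The values of these members are uncertain to that extent.

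Total counts per DVC library were 102116189 to 191252522 for IP and 29492622 to 95079227 for input, and those per MBH library were 21782798 to 73940674 for IP and 36542586 to 80084056 for input. A count was present for 9925 to 16796 genes in DVC IP libraries, 16569 to 18200 in DVC inputs, 6285 to 15913 in MBH IP libraries and 12853 to 18657 in MBH inputs, and 6 IP libraries held under 12000 genes (1 of DVC, 5 of MBH). Region markers were checked against the labels, and of 6 DVC genes 5 were higher and 1 lower in DVC than MBH input, and 5 of 5 MBH genes tested were lower in DVC input. In bulk tissue, fewer cells of a type and less RNA per cell cannot be told apart.

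A count was found for 25 to 54 of the 80 members in DVC IP libraries, 52 to 65 in DVC inputs, 9 to 57 in MBH IP libraries and 26 to 66 in MBH inputs. Kcna7, Kcne1, Kcnk16, Kcnk18 and Kcnv2 had no count in any library, and 71 members were tested in at least 1 comparison. Summed over the members, the level was 1180 ± 269 CPM (a gene's count relative to its library's total count after TMM scaling) in DVC IP and 1299 ± 128 CPM in DVC input. For MBH it was 603 ± 245 CPM in IP and 512 ± 67.0 CPM in input (SD, n = 12 libraries each).

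Per kb of exon, Kcna1 and Kcnk1 were the most abundant members in DVC. Kcna1, a low-threshold Kv subunit of axons, stood at 41.5 CPM per kb in DVC input and Kcnk1, a leak channel, at 34.7 CPM per kb. Next in DVC input came the modifier gene Kcng4 at 20.0 CPM per kb, Kcnc4 at 19.2 and the inward rectifier gene Kcnj14 at 13.8. Kcna5 (7.30), Kcnh2 (7.16), Kcna6 (6.94) and Kcna3 (6.93 CPM per kb) were also among the first 10. In MBH input the first 10 began with Kcnk1 at 12.3 CPM per kb, Kcnc4 at 7.52, Kcna5 at 7.27 and Kcnk2, a stretch- and heat-sensitive leak channel, at 6.33. Kcna3 (5.27), Kcna1 (4.88), Kcnj9 (4.76), Kcna6 (3.94), Kcnf1 (3.93) and Kcnk13 (3.11 CPM per kb) followed. Neighbours in either order, such as Kcna5, Kcnh2, Kcna6 and Kcna3 in DVC, were not separated by their spread between libraries. By the same measure Kcng4 had rank 3 in DVC input and rank 54 in MBH input.

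Compared with MBH input, DVC input had more mRNA of the fast Kv genes Kcnc1, Kcnc2 and Kcnc4, of the axonal genes Kcna1 and Kcna2, and of the modifier gene Kcng4. Averaged over the 4 treatments, 20 of the 70 members tested were higher and 2 were lower in DVC input (edgeR quasi-likelihood test, Benjamini-Hochberg adjusted p under 0.05). That is 28.6% and 2.86% of the members, against 11.7% and 10.2% of all 18576 genes tested (21.9% in either direction). The median log2 difference was 1.10 over the members and 0.105 over all genes.

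Kcnc1, Kcnc2 and Kcnc4, which encode high-threshold Kv channels that close quickly and let neurons fire at high rates, were higher in DVC input. Kcnc4 was at 41.9, 74.3 and 104 CPM (lowest, median, highest of 12 libraries) in DVC input and 13.8, 27.9 and 38.5 CPM in MBH input, without overlap (log2 1.40 ± 0.18, SE; adjusted p = 1.41e-05). Kcnc1 was at 14.1, 52.2 and 104 CPM in DVC input and 4.24, 14.3 and 23.6 CPM in MBH input, where the lowest DVC libraries reached into the MBH range (2.01 ± 0.30, adjusted p = 6.01e-05). Kcnc2 overlapped as well, with 24.1 to 73.9 CPM in DVC input and 2.00 to 35.4 CPM in MBH input (1.60 ± 0.33, adjusted p = 0.00168).

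The low-threshold Kcna genes, which act mainly along axons, differed among themselves. Kcna1 was at 139, 188 and 282 CPM in DVC input and 0.642, 21.1 and 46.8 CPM in MBH input, with no overlap (log2 3.15 ± 0.46, adjusted p = 4.96e-05). Kcna2, which joins Kcna1 in axonal channels, was at 46.6, 68.7 and 83.4 CPM in DVC input and 0, 12.4 and 28.3 CPM in MBH input (2.33 ± 0.57, adjusted p = 0.00548). Kcna6 was higher too, by a log2 of 0.87 ± 0.26 and with overlap. Kcna3, Kcna4 and Kcna5 were not called. Of the A-type genes, Kcnd2 was higher in DVC input (1.07 ± 0.30, adjusted p = 0.0137).

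Of the 8 modifier genes tested, 2 were higher in DVC input. Kcng4 was at 29.8, 68.9 and 138 CPM in DVC input, and in MBH input it had a count in only 3 of 12 libraries, the highest at 7.29 CPM. The regions did not overlap (fitted log2 10.17 ± 1.29, adjusted p = 3.59e-05), and with so many libraries at 0 the fitted size rests on the prior count and is no bound. Kcng1 was at 0, 8.72 and 25.8 CPM in DVC input against 0, 0.358 and 10.3 CPM in MBH input, with 5 MBH libraries at 0 (5.23 ± 1.15, adjusted p = 0.00312). Both encode subunits that join Kcnb channels, and Kcnb2 was not called.

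**Figure D1:**
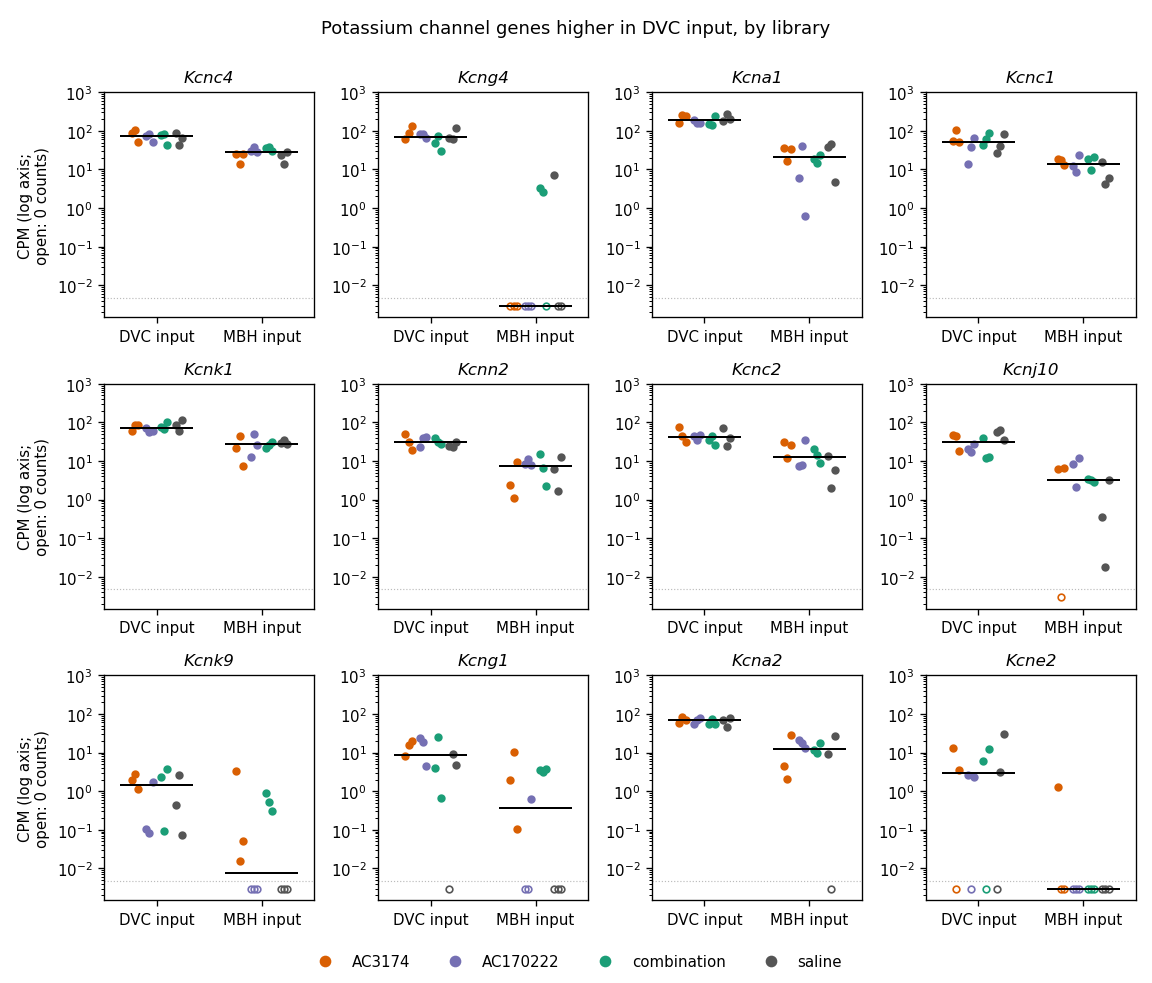
CPM of 12 members higher in DVC input, in the 12 DVC and 12 MBH inputs (log axis, 1 point per library, colour by treatment, line at the median, open points at 0 counts). DVC libraries of Kcnc4, Kcng4, Kcna1, Kcnk1, Kcnn2, Kcnj10 and Kcna2 all lie above the MBH libraries.

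The promoters of Kcng4, Kcnc1 and Kcnc4, which were each called higher in DVC input, are shown for comparison of their base composition. They are from RefSeq on GRCm38.p6 and run from 250 bases before to 50 bases after the annotated start. Capitals mark the GC box (GGGCGG) and the E-box (CANNTG), each searched on both strands.

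Kcng4: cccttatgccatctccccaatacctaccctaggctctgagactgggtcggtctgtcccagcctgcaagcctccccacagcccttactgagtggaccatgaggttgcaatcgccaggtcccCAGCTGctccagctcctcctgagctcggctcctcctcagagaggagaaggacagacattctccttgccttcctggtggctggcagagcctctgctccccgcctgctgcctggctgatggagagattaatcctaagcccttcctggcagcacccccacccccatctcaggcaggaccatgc

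Kcnc1: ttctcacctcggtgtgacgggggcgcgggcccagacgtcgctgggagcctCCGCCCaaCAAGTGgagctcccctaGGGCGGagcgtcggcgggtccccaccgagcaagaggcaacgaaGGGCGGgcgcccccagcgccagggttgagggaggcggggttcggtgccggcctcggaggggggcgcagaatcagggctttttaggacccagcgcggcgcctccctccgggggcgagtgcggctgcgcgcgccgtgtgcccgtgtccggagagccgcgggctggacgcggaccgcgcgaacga

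Kcnc4: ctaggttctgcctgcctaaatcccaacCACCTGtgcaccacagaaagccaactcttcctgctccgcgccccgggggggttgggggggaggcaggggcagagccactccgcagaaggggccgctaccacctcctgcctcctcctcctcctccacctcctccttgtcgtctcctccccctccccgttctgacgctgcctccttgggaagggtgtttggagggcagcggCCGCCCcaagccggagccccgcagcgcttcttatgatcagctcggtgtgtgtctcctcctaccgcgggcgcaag

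These windows lie at chr8:119635631-119635930 (minus strand) for Kcng4, chr7:46396218-46396517 (plus) for Kcnc1 and chr3:107458849-107459148 (minus) for Kcnc4. Their GC content is 61.3%, 74.7% and 66.7%, and they hold 0, 3 and 1 GC boxes. A GC box is in 9 of the 18 windows found for 14 of the 20 members higher in DVC input (50%) and 36 of the 72 windows of the 56 members found in the table (50%), against 35.7% of all 32851 windows. An E-box is in 73.6% of the members' windows and 72.3% of all windows. A match is a description of these letters only.

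Among the channels opened by other cues, the small-conductance calcium-activated gene Kcnn2 was at 19.5, 31.5 and 48.9 CPM in DVC input and 1.11, 7.36 and 15.2 CPM in MBH input, without overlap (log2 2.23 ± 0.39, adjusted p = 0.0003). It was the 1 called of the 7 members with Kcnn, Kcnt and Kcnu symbols. Of the 8 Kcnh genes, Kcnh2, whose channel slows repeated firing, was at 25.3, 31.4 and 49.8 CPM in DVC input and 0, 4.08 and 19.0 CPM in MBH input (2.80 ± 0.70, adjusted p = 0.00683). Kcnh7 was also higher (1.13 ± 0.38) and Kcnh4 lower (fitted -5.70 ± 1.89, adjusted p = 0.0419), the last with 10 of 12 DVC inputs and 5 of 12 MBH inputs at 0. None of the 4 Kcnq genes tested was called. Each of 12 further fits left out the DVC and MBH inputs of 1 treatment and number. Calls of this comparison that rested on few libraries were Kcnh4, Kcnj5, Kcnh7 and Kcnj13, which passed in 0, 1, 2 and 3 of those fits. Kcnj12 and Kcna6 passed in 8.

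Leak and inward rectifier genes added 6 of the 20 higher members. Kcnk1 was at 57.2, 73.8 and 117 CPM in DVC input and 7.53, 27.1 and 49.6 CPM in MBH input, without overlap (log2 1.51 ± 0.25, adjusted p = 0.00017). The acid-sensitive leak genes Kcnk3 (14.6 ± 5.60 CPM in DVC input, 4.24 ± 3.43 CPM in MBH input, SD, n = 12 each; log2 2.06 ± 0.54) and Kcnk9 (1.41 ± 1.26 and 0.42 ± 0.942 CPM; fitted 5.04 ± 1.05) were higher with overlap. Kcnk9 was at 0 in 6 of 12 MBH inputs. Kcnj10, the rectifier with which astrocytes clear potassium, was at 12.2, 31.3 and 63.9 CPM in DVC input and 0, 3.17 and 11.7 CPM in MBH input (3.24 ± 0.69, adjusted p = 0.00204). Kcnj12 was higher (4.74 ± 1.40, adjusted p = 0.0215), and Kcnj5, which encodes a subunit of G protein-gated channels, was lower with 8 of 12 DVC inputs and 2 of 12 MBH inputs at 0 (fitted -4.39 ± 1.46, adjusted p = 0.0432).

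Kcnj13 and Kcne2, channel genes of the choroid plexus, were higher in DVC input and uneven between libraries. Kcne2 was at 13.3, 0 and 3.45 CPM with AC3174, 2.67, 0 and 2.39 with AC170222, 5.93, 0 and 12.2 with the combination and 0, 3.10 and 30.9 with saline in DVC input. It was at 0 in 11 of 12 MBH inputs (fitted log2 9.42 ± 2.13, adjusted p = 0.0062). Kcnj13 had its highest DVC input values in saline 3 (23.6 CPM), combination 3 (10.3 CPM) and AC3174 1 (6.65 CPM). In the same 3 libraries Ttr, the main choroid plexus mRNA, was at 1473, 1048 and 1018 CPM, against 12.7 to 311 CPM in the other DVC inputs. The part of choroid plexus tissue in these differences was not tested.

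The regions also differed in cell type markers. Summed over 7 neuronal markers, the level was 9883 to 11570 CPM in DVC input and 4503 to 6365 CPM in MBH input, and 6 of the 7 were higher in DVC. The 6 oligodendrocyte markers summed to 5963 to 8901 CPM in DVC input and 1406 to 3204 CPM in MBH input, and the 6 astrocyte markers to 558 to 1007 and 260 to 379 CPM, with 6 of 6 called higher in each list. Of 4 choroid plexus and ependyma markers 2 were higher, of 6 microglial markers 1, and of 6 vessel markers 0. No neuronal, astrocyte or oligodendrocyte marker was at 0 in all libraries of a region. The part of cell composition in the channel differences was not tested.

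**Figure D2:**
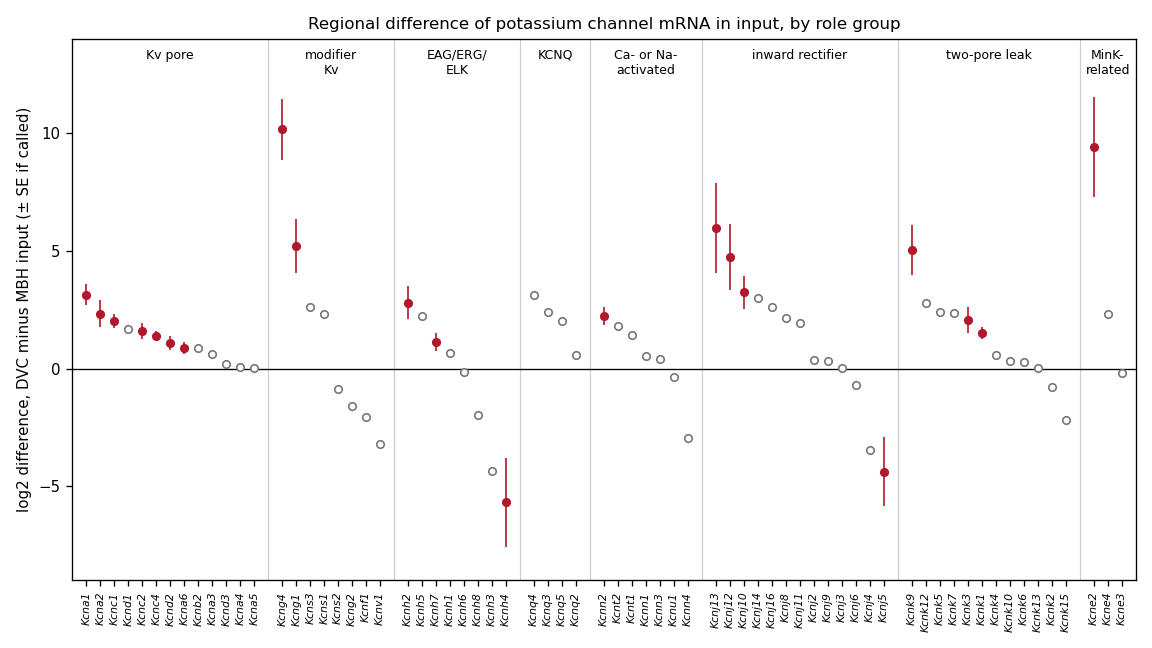
Log2 difference of DVC minus MBH input for members tested, ordered within role groups (filled red with SE: called, open grey: not called). Higher members lie in all groups but KCNQ, and the 2 lower ones are Kcnh4 and Kcnj5.

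The next comparison asked which channel mRNAs stood higher or lower on phospho-S6 ribosomes than in the lysate. In DVC, 16 of the 65 members tested were lower in the IP than in the input and 1, Kcnj14, was higher. That is 24.6% and 1.54% of the members, against 13.6% and 6.8% of all 18465 genes tested (20.4% in either direction), and the median log2 difference was -1.79 over the members and -0.371 over all genes. With the sample number shared by IP and input as a block, 7 members were lower and 1 higher. The share of all genes called with the block is not given here, so this count does not set the members apart from other genes.

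Kcnj14, an inward rectifier known from cranial motor neurons of the rat, was at 41.8, 101 and 211 CPM (lowest, median, highest of 12) in DVC IP and 7.73, 35.9 and 65.7 CPM in DVC input. The IP was above the input of the same number in 11 of 12 samples, the exception being AC3174 1 (54.8 CPM in IP, 61.3 CPM in input), and the ranges overlapped (log2 1.45 ± 0.35, adjusted p = 0.00732). The call held under every alternative run. Per kb of exon, Kcnj14 was at 39.2 CPM per kb in DVC IP, after Kcna1 (53.9) and Kcnk1 (43.8) and before Kcng4 (35.2). Kcna1 and Kcng4 were not called between DVC IP and input, with means of 258 ± 111 and 134 ± 55.9 CPM in DVC IP against 198 ± 46.9 and 75.9 ± 28.9 CPM in DVC input (SD, n = 12).

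Kcnc1 was at 0.0244, 10.6 and 35.1 CPM in DVC IP and 14.1, 52.2 and 104 CPM in DVC input, lower in 12 of 12 samples (-2.34 ± 0.59, adjusted p = 0.0097; adjusted p = 0.0576 with the sample as a block). Kcnc2 and Kcnc4, at 29.9 ± 16.9 and 40.5 ± 26.9 CPM in DVC IP and 42.8 ± 15.7 and 70.4 ± 19.8 CPM in DVC input, were not called.

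Kcna3 and Kcnb2 were further Kv pore genes called lower. Kcna3, a Kv gene of lymphocytes, microglia and some neurons, had a count in 2 of 12 DVC IP libraries, at 0.482 CPM at most, and was at 3.35, 12.5 and 37.4 CPM in DVC input, without overlap (fitted log2 -11.18 ± 1.29, adjusted p = 6.72e-05). Kcnb2, a delayed rectifier of cell bodies and dendrites, was at 4.44 ± 5.61 CPM in DVC IP, with 5 libraries at 0, and 10.1 ± 6.54 CPM in DVC input (-4.32 ± 1.09, adjusted p = 0.0106; 0.0589 with the sample as a block).

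Leak channel genes gave the most calls, with 6 of the 11 tested lower in DVC IP. Kcnk6 was at 0 to 0.0325 CPM in DVC IP and 0, 0.648 and 5.91 CPM in DVC input (log2 -6.49 ± 1.22, adjusted p = 0.00136). Kcnk13 had 0 counts in 10 of 12 DVC IP libraries but 78.7 CPM in AC3174 3, the DVC IP library with 9925 genes, and was at 1.44, 8.07 and 34.7 CPM in DVC input (fitted -7.13 ± 1.68, adjusted p = 0.00855). Kcnk9 (fitted -7.21 ± 1.47), Kcnk12 (-5.51 ± 1.35) and Kcnk10 (-5.66 ± 1.33) had 10, 8 and 7 of 12 DVC IP libraries at 0, against 0, 0 and 1 of 12 DVC inputs. With the sample as a block Kcnk10 lost its call (adjusted p = 0.0729) and Kcnk9 and Kcnk12 kept theirs. Kcnk3 was at 4.86 ± 6.24 CPM in DVC IP and 14.6 ± 5.60 CPM in DVC input (-2.20 ± 0.59, adjusted p = 0.0136; 0.0519 with the sample as a block). Without the samples of AC3174 3, 16 of the 17 calls of this comparison were kept and that of Kcng2 was lost.

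The remaining lower members were scattered over other groups. The modifier genes Kcns1 (fitted log2 -8.62 ± 1.83), Kcnf1 (-6.86 ± 1.79) and Kcng2 (-3.56 ± 1.16) were called lower, and with the sample as a block none of them was (adjusted p = 0.0608, 0.16 and 0.144). The mean of Kcng2 was 0.651 CPM in DVC IP and 0.481 CPM in DVC input, and 8 of 12 IP libraries, against 2 of 12 inputs, were at 0. Kcng2 kept its call in 1 of the 12 fits that each left out 1 sample. Kcnn3, whose channel slows firing after calcium entry, was at 0 in 10 of 12 DVC IP libraries and at 3.56 ± 3.36 CPM in DVC input (-8.43 ± 1.47, adjusted p = 0.00189; 0.0952 with the sample as a block). Kcnh1 was at 1.83 ± 3.27 CPM in DVC IP and 13.4 ± 6.30 CPM in DVC input, lower in 12 of 12 samples (-5.38 ± 1.35, adjusted p = 0.0102; 0.0508 with the sample as a block). Kcnq5, a subunit of the M-current that muscarinic receptors close, was at 0.55 ± 1.83 CPM in DVC IP and 4.96 ± 4.31 CPM in DVC input (-6.86 ± 1.59, adjusted p = 0.00658).

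**Figure D3:**
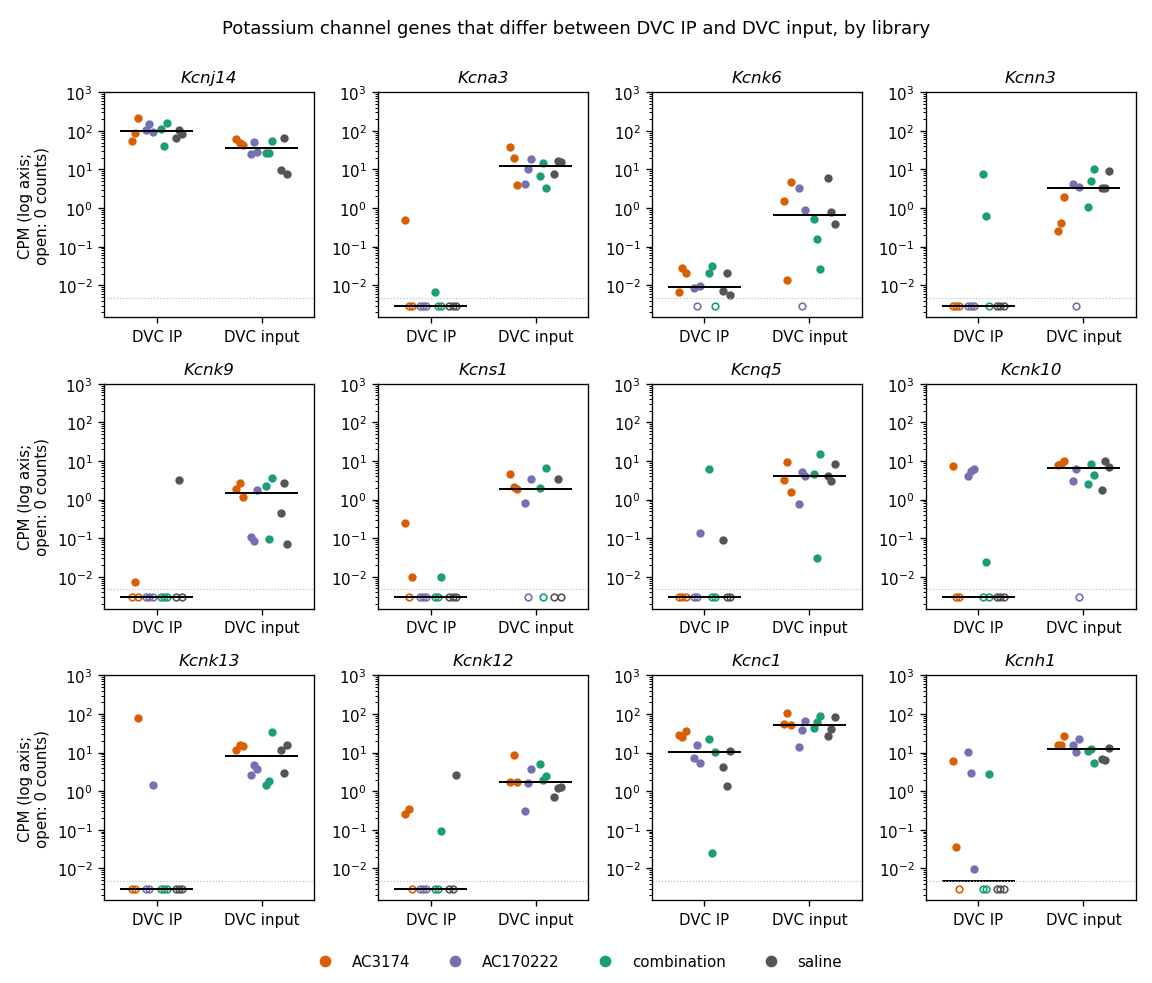
CPM of Kcnj14 and of 11 lower members in the 12 DVC IP libraries and 12 DVC inputs (log axis, 1 point per library, colour by treatment, line at the median, open points at 0 counts). Kcnj14 lies higher in the IP, and Kcna3, Kcnn3, Kcnk9, Kcns1, Kcnq5, Kcnk10, Kcnk13 and Kcnk12 are at 0 in most IP libraries.

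Of the 16 lower members, 12 had no count in 5 or more of the 12 DVC IP libraries. Between 8 and 16 CPM in DVC input, the 14 members had on average 4.14 of 12 DVC IP libraries at 0, against 2.47 over all 1917 genes of that range. Between 4 and 8 CPM the averages were 5.89 for 9 members and 3.73 for 1545 genes, and between 16 and 32 CPM they were 2.00 for 7 members and 1.31 for 2411 genes. Members above 64 CPM in DVC input had none at 0. In MBH the same averages were 3.85 for 13 members and 3.07 for 1894 genes between 8 and 16 CPM, and 4.67 for 12 members and 4.23 for 1581 genes between 4 and 8 CPM. As for Kcng4, the fitted log2 differences of such members are no bounds.

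**Figure D4:**
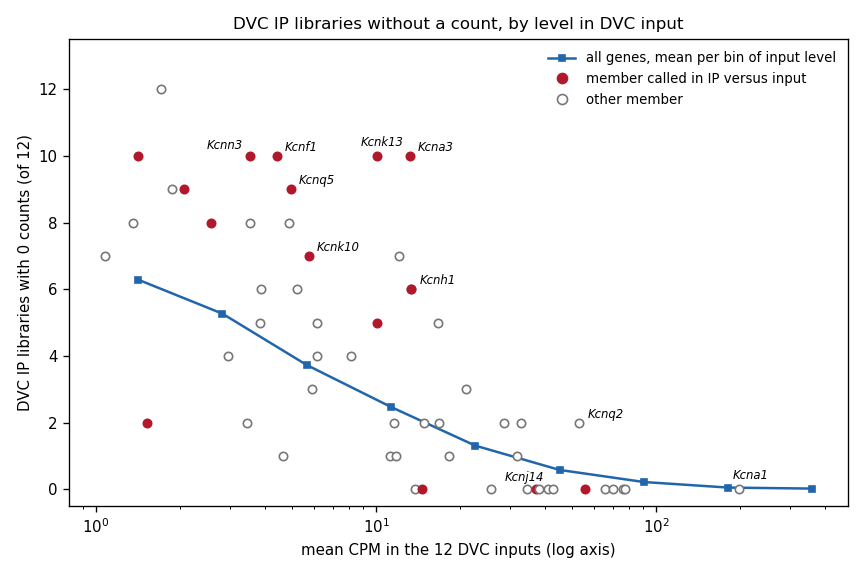
Number of DVC IP libraries with 0 counts (of 12) against the mean CPM in DVC input (log axis) for members at 1 CPM or more in DVC input (points, red where called) and for all genes (line, mean per bin of input level). Kcna3 and Kcnk13 have 10 IP libraries at 0 at a level where all genes average 2.47, while Kcnj14, called higher, has none.

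Some markers of other cell types moved in the same comparison. The 6 microglial markers summed to 0 to 34.2 CPM in DVC IP and 27.8 to 59.8 CPM in DVC input, 4 of 6 being lower and Csf1r at 0 in 11 of 12 IP libraries. Of 6 endothelial and mural markers 5 were lower, with sums of 0 to 68.6 CPM in DVC IP and 19.4 to 46.4 CPM in DVC input, and of 6 oligodendrocyte markers 4 were lower, with sums of 1592 to 7104 and 5963 to 8901 CPM. The 7 neuronal markers summed to 12969 to 29679 CPM in DVC IP and 9883 to 11570 CPM in DVC input, with 4 of 7 higher. Of the 6 astrocyte markers 1 was higher and 0 were lower, with sums of 292 to 1418 CPM in DVC IP and 558 to 1007 CPM in DVC input. Of 4 choroid plexus and ependyma markers 0 were called. Their part in the levels of Kcna3, Kcnk6, Kcnk13 and the other members was not tested.

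In MBH, no member was called between IP and input. Of the 66 members tested, 7 had an unadjusted p under 0.05, which is 10.6% against 11.3% of all genes. DESeq2 called 11 members and 10.6% of all genes, while edgeR called 0.16% of all 17461 genes higher and 0.292% lower (0.452% in either direction). The smallest p was that of Kcnn4, which had no count in the 12 MBH IP libraries and 0, 0.646 and 2.61 CPM in MBH input, a mean at least 145-fold lower in the IP when the floor is 3 counts over the 12 libraries (adjusted p = 0.0805). That bound covers counting error only, not the spread between libraries. Next came Kcnn1, at 0, 0 and 18.8 CPM in MBH IP and 0, 6.02 and 37.5 CPM in MBH input (fitted log2 -5.65 ± 1.55, adjusted p = 0.118). Without the samples of AC3174 1, the count was 2.

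The IP-to-input difference itself differed between DVC and MBH for 5 of the 71 members tested, 4 lower and 1 higher in DVC, against 2.06% lower and 2.33% higher of all 19416 genes (4.39% in either direction). Kcnn3 was at 0, 0 and 7.69 CPM in DVC IP and 0, 3.32 and 10.5 CPM in DVC input, against 0, 2.30 and 37.1 CPM in MBH IP and 0, 1.60 and 9.09 CPM in MBH input (fitted difference of log2 differences -8.97 ± 1.94, adjusted p = 0.00541). Kcna3 (-7.80 ± 1.72), Kcnq5 (-8.37 ± 2.14) and Kcnf1 (-6.40 ± 1.80) followed it. Kcnn1 went the other way, at 19.2 ± 19.0 CPM in DVC IP and 11.6 ± 5.83 in DVC input, against 2.83 ± 5.80 CPM in MBH IP and 8.95 ± 10.3 in MBH input (6.39 ± 1.72, adjusted p = 0.0253). With the sample as a block, 0 of these 5 calls were kept, and without the libraries under 12000 genes Kcnn1 lost its call.

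On the ribosomes the regions differed in 11 of the 64 members tested, with 6 higher and 5 lower in DVC IP than in MBH IP, against 3.11% and 2.79% of all 17230 genes. Without the libraries under 12000 genes, 5 of these 11 calls were kept and 6 were lost. Those lost were Kcng1, Kcnn1, Kcne2, Kcnv1, Kcnh4 and Kcnn3. Kcng4 was at 2.76, 151 and 189 CPM in DVC IP and had a count in 2 of 12 MBH IP libraries, at 10.9 and 2.78 CPM (fitted log2 13.50 ± 1.34, adjusted p = 4.87e-05). The values overlapped because 1 saline library of DVC IP held 2.76 CPM. Kcnj14 was at 41.8 to 211 CPM in DVC IP and 0 to 9.18 CPM in MBH IP, without overlap (7.98 ± 1.56, adjusted p = 0.00509). Kcna1 was at 128, 252 and 556 CPM in DVC IP and 0, 19.8 and 153 CPM in MBH IP (3.17 ± 0.70, adjusted p = 0.0094). These 3 were called in each of the 12 fits that left out the DVC and MBH IP libraries of 1 treatment and number.

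Kcng1 (7.78 ± 1.87), Kcnn1 (6.94 ± 1.79) and Kcne2 (9.48 ± 2.60) were the other members higher in DVC IP, and each lost its call in at least 7 of the 12 such fits. Kcnv1, a silent Kv subunit gene, had no count in DVC IP and 0, 0.599 and 27.1 CPM in MBH IP, a mean at least 1910-fold lower in DVC IP at the floor of 3 counts over the 12 libraries, or at least 846-fold without the MBH IP library at 27.1 CPM, AC3174 2, a library with under 12000 genes (adjusted p = 0.024). Kcnh4 had no count in DVC IP either, and its mean of 1.71 CPM in MBH IP made it at least 861-fold lower, or at least 599-fold without the highest library (adjusted p = 0.0331). The bounds for Kcnv1 and Kcnh4 cover counting error only, not the spread between libraries. Over all genes at 1 to 2 CPM in DVC input, 6.29 of 12 DVC IP libraries were at 0 on average. Kcnn3, Kcnf1 and Kcna3 were lower as well, with adjusted p of 0.0202, 0.0319 and 0.0378. The lower calls were less stable than that of Kcng4: Kcnh4 and Kcna3 were kept in 0 of those 12 fits, Kcnf1 in 2, Kcnv1 in 4 and Kcnn3 in 5.

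Cell type markers differed between the IPs as well. The 7 neuronal markers summed to 12969 to 29679 CPM in DVC IP and 3057 to 7651 CPM in MBH IP, with 5 of 7 higher, and of the 4 choroid plexus and ependyma markers 1, Ttr, was higher (sums of 27.6 to 2550 CPM in DVC IP and 0 to 119 CPM in MBH IP). No astrocyte, oligodendrocyte, microglial or vessel marker was called. Their part in the levels of Kcng4, Kcnj14, Kcne2 and the other members was not tested.

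The drugs were compared with saline within each region and RNA kind, which asks whether AC3174, AC170222 or their combination changed channel mRNA. The library codes in the sample titles number saline and AC170222 libraries 1 to 3 and AC3174 and combination libraries 4 to 6. What these code numbers mark is not stated. For AC3174 and the combination against saline, treatment and code number cannot be told apart. No member was called in any of the 12 comparisons, in which 50 to 65 members were tested and 0% of all genes were called by edgeR. At an unadjusted p under 0.05 there were 9, 6 and 4 members for AC3174, AC170222 and the combination in DVC IP, 8, 6 and 2 in DVC input, 0, 1 and 1 in MBH IP and 9, 5 and 6 in MBH input. For the 3 treatments in the same order, that is 18%, 12% and 8% of the members against 6.58%, 5.25% and 5.44% of all genes in DVC IP, and 12.3%, 9.23% and 3.08% against 4.81%, 4.18% and 5.38% in DVC input. For MBH the shares are 0%, 1.82% and 1.82% of the members against 1.98%, 1.56% and 0.86% of all genes in IP, and 14.3%, 7.94% and 9.52% against 8.59%, 6.57% and 8.57% in input. DESeq2 called 8, 7 and 6 members in DVC IP, 3, 3 and 1 in DVC input, 3, 8 and 3 in MBH IP and 6, 5 and 3 in MBH input. Of all genes it called 7.23%, 5.73% and 5.91% in DVC IP, 1.31%, 1.24% and 1.56% in DVC input, 2.49%, 1.96% and 1.07% in MBH IP and 4.45%, 3.45% and 3.44% in MBH input.

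In DVC IP the smallest p belonged to Kcnj11, the pore subunit of the ATP-sensitive channel that closes when glucose metabolism is high. It was at 3.27, 13.5 and 16.5 CPM with AC3174, 4.48, 2.73 and 5.46 CPM with AC170222 and 1.65, 3.07 and 1.97 CPM with the combination, against 0, 0 and 0.0167 CPM with saline, where the 3 libraries held 3 counts. Every drug library was above every saline library (adjusted p = 0.677, 0.852 and 0.817 for AC3174, AC170222 and the combination, not called). The value of 16.5 CPM is from AC3174 3, the DVC IP library with 9925 genes. How many of all genes separate from saline in this way was not counted, here or for the members below. In DVC input Kcnj11 was at 3.42 to 5.05 CPM with AC3174, 4.45 to 6.66 CPM with AC170222 and 0 to 7.98 CPM with the combination, against 0 to 2.62 CPM with saline.

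Kcns3, a modifier of Kcnb channels, was at 0, 0.26 and 0 CPM with AC3174 in DVC IP, against 14.3, 38.1 and 68.6 CPM with saline (fitted log2 -8.85 ± 2.39, adjusted p = 0.677). With AC170222 it was at 9.76, 12.9 and 10.1 CPM and with the combination at 11.6, 11.2 and 22.2 CPM. All AC3174 libraries were below all libraries of the other groups, and the combination overlapped saline. Among the AC3174 libraries at 0 was AC3174 3, the one with 9925 genes. In DVC input, at 4.33 to 20.9 CPM with AC3174 and 8.97 to 31.0 CPM with saline, the ranges overlapped. Kcnd1 and Kcnb2 had no count in the 3 saline libraries of DVC IP and reached 59.7 and 14.4 CPM in drug libraries, some of which were also at 0.

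In DVC input Kcnd2, an A-type Kv gene that delays firing, had the smallest p for AC3174 and for AC170222. It was at 31.4, 41.2 and 44.2 CPM with AC3174, 22.5, 43.9 and 40.3 with AC170222 and 16.5, 28.4 and 25.7 with the combination, against 15.1, 19.0 and 16.7 CPM with saline. All AC3174 and AC170222 libraries were above the saline libraries, while the combination overlapped saline (log2 1.24 ± 0.32 and 1.09 ± 0.32 for the single drugs; adjusted p = 0.993 and 1). Kcnj10 was at 38.5, 12.2 and 12.8 CPM with the combination and 57.1, 63.9 and 34.8 CPM with saline (-1.27 ± 0.49, adjusted p = 0.891). The 12 comparisons share their saline libraries within each region and RNA kind.

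**Figure D5:**
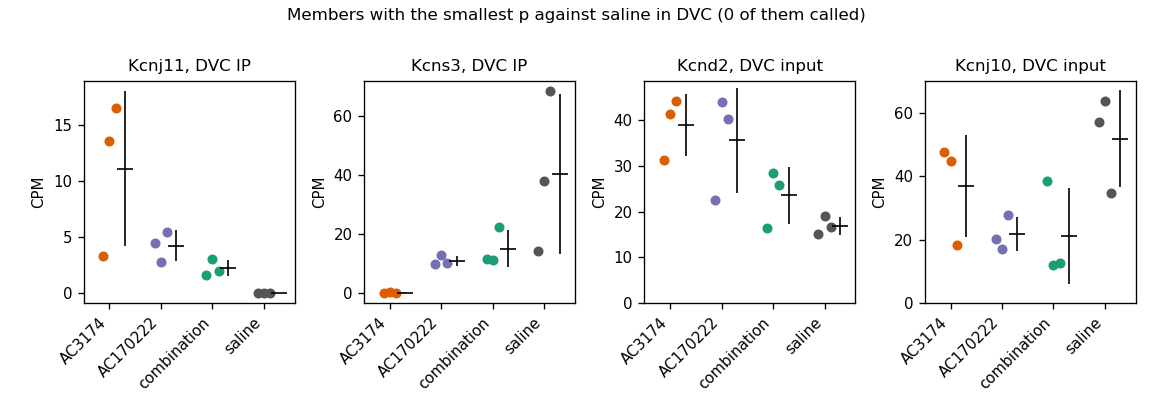
CPM in each library (points) with the mean ± SD of 3 (black) for Kcnj11 and Kcns3 in DVC IP and Kcnd2 and Kcnj10 in DVC input, by treatment. Kcnj11 saline libraries are at 0 to 0.0167 CPM, AC3174 libraries of Kcns3 at 0 to 0.26 CPM, and none of these differences was called.

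In MBH input, Kcng1 had the smallest p for AC3174 and the combination. It was at 1.95, 10.3 and 0.104 CPM with AC3174, 0, 0 and 0.612 CPM with AC170222 and 3.53, 3.13 and 3.84 CPM with the combination, against 0 CPM in the 3 saline libraries (adjusted p = 0.56 for AC3174 and 0.566 for the combination). In MBH IP, Kcnj6, a pore subunit of G protein-gated channels, was at 2.66, 0.782 and 0 CPM with AC3174, 0.0625, 0 and 62.6 CPM with AC170222 and 2.22, 0.223 and 5.62 CPM with the combination, against 0 CPM in the 3 saline libraries (adjusted p = 1 for each drug).

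Partner genes, whose proteins bind channel subunits, were taken from a list of 19. Of the 17 tested between the inputs, 6 were higher and 2 lower in DVC. All 3 Kcnab genes, whose cytoplasmic subunits attach to Kcna channels, were higher: Kcnab2 was at 381 ± 52.7 CPM in DVC input and 131 ± 26.3 CPM in MBH input (SD, n = 12; log2 1.56 ± 0.10, adjusted p = 1.55e-09), Kcnab1 at 196 ± 35.2 and 104 ± 39.2 CPM (0.95 ± 0.16) and Kcnab3 at 114 ± 26.4 and 17.9 ± 9.56 CPM (2.71 ± 0.53). All 3 were also higher in DVC IP than in DVC input, with Kcnab1 at 487 ± 181 CPM in DVC IP against 196 ± 35.2 CPM in DVC input (1.21 ± 0.20, adjusted p = 0.000481), and with Kcnab2 (0.69 ± 0.16) and Kcnab3 (1.24 ± 0.21) alike. Of the Kcnip genes, calcium sensors that attach to Kcnd channels, Kcnip2 was at 23.9 ± 11.9 CPM in DVC input and 90.2 ± 11.7 CPM in MBH input (-1.94 ± 0.24, adjusted p = 7.26e-06) and Kcnip1 was lower too (-1.12 ± 0.25). Dpp6, another Kcnd partner, Amigo1, which attaches to Kcnb channels, and Abcc8, the regulatory subunit of the ATP-sensitive channel, were lower in DVC IP than in DVC input (-1.28 ± 0.28, -5.35 ± 0.96 and -4.93 ± 1.38). In DVC IP, Amigo1 was at 0 in 4 and Abcc8 in 7 of 12 libraries. Abcc8 was higher in DVC than MBH input (fitted 3.82 ± 1.32, adjusted p = 0.0478), as were Abcc9 (fitted 3.60 ± 1.15) and Kcnmb2 (fitted 7.01 ± 1.43). Abcc8 had means of 9.66 CPM in DVC input and 3.42 CPM in MBH input, with 7 of 12 MBH inputs at 0. Kcnmb2 had means of 6.01 and 0.633 CPM, with 9 of 12 MBH inputs at 0. The fitted sizes of genes with so many libraries at 0 are no bounds. No partner was called in the 12 drug comparisons, where the smallest adjusted p was 0.56.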

How the data were processed

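Gene counts per library are used as deposited by the authors, made with TopHat2 2.0.11 and HTSeq 0.6.1p1 per the submitters' processing notes, which also name GRCm38. The strand setting of the counting and its annotation were not given in the sources used. Libraries were made with SMART-Seq v4 and Nextera XT kits per the labels' protocols, which keep no strand. Of the 38293 identifiers in the table, 36345 matched GENCODE mouse release 21, which gave symbols, gene types and exon lengths.

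Counts were tested with edgeR 4.0.16 in R 4.3.3 (quasi-likelihood test, TMM scaling, filterByExpr, 2-sided), with Benjamini-Hochberg adjustment over all genes tested and a call at an adjusted p under 0.05. CPM were computed from the deposited counts and library totals multiplied by TMM factors. Each SE of a log2 difference was back-calculated as its absolute value divided by the square root of the test's F statistic. It is not a directly estimated error. Each region or RNA comparison averaged over the 4 treatments, and each drug was compared with saline within 1 region and RNA kind. The same fits were run on simulated counts, and their pass mark was set for large changes at a spread below that of these data. That check therefore cannot tell how many changes of a given size the tests would find here. Alternatives were DESeq2 1.42.0, RLE scaling, no filter on low counts and the library set as a covariate. The labels name no library set, and it was formed here by joining neighbouring code numbers (1 and 2, 3 and 4, 5 and 6). Saline and AC170222 libraries lie in sets 1 and 2, and AC3174 and combination libraries in sets 2 and 3. Further alternatives were leaving out libraries with under 12000 genes, a replicate block and leaving out each replicate. The replicate left out was 1 library for the drugs, and elsewhere all compared libraries of 1 treatment and number.

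Per the labels' protocols, input was taken from the lysate that then went into the IP, and equal numbers were read as 1 sample. Deviations of input and IP of equal number had a median correlation of 0.0143 (DVC) and 0.00357 (MBH), and 0 of 12 correlations per region passed 0.1, so the pairing comes from the protocol and not from the values. No 2 replicates agreed within sampling noise (lowest chi-square per degree of freedom 135.1 over 48 pairs of libraries).

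Members with values in the text are the 10 highest per kb in each input, the members called in a comparison (at most 12 a direction by smallest p) and, where none was called, the 2 with the smallest p. Values of members outside this rule (such as Kcna1, Kcnc2, Kcnc4 and Kcng4 between DVC IP and input, and the lower members past the first 12) were added after they had been seen. The members and lists were chosen with earlier results of these data known. A floor of 3 counts over a group covers counting error only. Leaving out the highest library of the other group from such a bound was chosen after seeing the data. Some members count in the totals and tests but are not reported here by name or drawn in the figures.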

Additional observations from a re-analysis of the deposited data

Results flagged for a closer look

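The IP-to-input difference was tested between DVC and MBH over all 48 libraries, and 5 members passed. The differences of log2 differences (DVC minus MBH) were -8.97 ± 1.94 for Kcnn3 (SE, edgeR adjusted p = 0.00541), -7.80 ± 1.72 for Kcna3 (adjusted p = 0.00604), -8.37 ± 2.14 for Kcnq5 (adjusted p = 0.0172), 6.39 ± 1.72 for Kcnn1 (adjusted p = 0.0253) and -6.40 ± 1.80 for Kcnf1 (adjusted p = 0.0343). Each has many libraries at 0: in DVC IP 10 of 12 for Kcnn3, Kcna3 and Kcnf1 and 9 of 12 for Kcnq5, and in MBH IP 7 of 12 for Kcnn1. With the sample as a replicate block the adjusted p ranged from 0.307 to 0.51, so none of the 5 passed. Of 12 fits, each left out all libraries of 1 treatment and number. Kcnn3 passed in 12 of them, Kcna3 in 10, Kcnq5 in 7, Kcnn1 in 2 and Kcnf1 in 1. The mean of Kcnq5 in MBH IP, 16.2 CPM, includes 1 library at 164 CPM, and its median there was 0.62 CPM.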

How the results depend on the processing

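In the 5 region and RNA comparisons, signs were followed for the members called or, where none was, the 2 with the smallest p. None of these log2 differences changed sign in an alternative run that gave an adjusted p. The signs of the drug differences were not followed. The number of members called moved by over 1.5 times in these cases. With DESeq2 it was 32 for IP versus input in DVC (17 with edgeR), 11 for the same in MBH (0), 25 for DVC versus MBH in IP (11) and 24 for the difference between regions (5), where DESeq2 called 33%, 10.6%, 18.7% and 16.8% of all genes, and 21, 7, 14 and 14 for the drugs in DVC IP, DVC input, MBH IP and MBH input (0 each). With the replicate block it was 8 for IP versus input in DVC, 2 for DVC versus MBH in IP and 0 for the difference between regions. For DVC versus MBH and for the drugs, the labels do not say whether equal numbers pair samples. With the block 22 members were called in DVC versus MBH input, of which 18 were among the 22 called without it. Same-numbered deviations of DVC and MBH correlated over 0.1 in 4 of 12 pairs in input and 6 of 12 in IP. Across treatments they did so in 14 of 18 pairs in MBH IP. In DVC IP, DVC input and MBH input the numbers were 3, 3 and 2 of 18. Leaving out 1 library gave 0 calls for each drug family. Leaving out all compared libraries of 1 treatment and number gave 16 to 21 calls for IP versus input in DVC and 0 to 2 in MBH. Such fits gave 16 to 23 for DVC versus MBH in input, 3 to 9 in IP and 1 to 8 for the difference between regions. The shares of all genes called with the block or in these fits are not given here, so such counts do not set the members apart from other genes. The cause of these shifts was not tested. Of single members' values, 190 of 204, 213 of 264, 55 of 132 and 32 of 60 kept their side of the threshold over those fits for IP versus input in DVC, DVC versus MBH in input, DVC versus MBH in IP and the difference between regions. Leaving out libraries with under 12000 genes gave no separate value for the input comparisons, since all inputs held more. Between 8 and 16 CPM in DVC input, members had on average 4.14 of 12 DVC IP libraries at 0, against 2.47 over all genes of that level, which limits how finely their IP levels can be given.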
